A study of Mus musculus with 4 samples.

Results

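The comparison described here is that of mouse 3T3 cells treated with recombinant LTα1β2 for 24 h with control 3T3 cells at the same time, and it covers 12160 genes of the 12208 in the table, those with a mean of at least 1 CPM (reads scaled so that the listed genes of a library sum to 1000000) over the 4 libraries of the series. There was 1 control library and 1 treated library at 24 h. The labels call the cells a pre-osteoblast line, give no genotype and name no control agent, and the dose of LTα1β2 is not given in the sources used here. All 4 libraries came from this 1 line, and the control and treated libraries at 48 h are given only as background. With 1 library a side no spread between replicates could be measured, so the results are sizes with counting error, and no gene is said to have passed a test.

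LTα1β2 is the membrane-type lymphotoxin made mainly by lymphocytes and lymphoid tissue inducer cells. It binds the lymphotoxin β receptor, encoded by Ltbr, on stromal cells. The receptor recruits TRAF adaptors and so stabilises the kinase NIK, encoded by Map3k14, which leads to processing of the Nfkb2 product and entry of NF-κB dimers containing RelB into the nucleus. It also activates the canonical arm, in which IκB proteins are degraded and RelA enters the nucleus, and both arms induce genes for their own inhibitors. In lymphoid organs this signalling induces chemokines and adhesion molecules in stromal cells, and in bone related TNF family signals act on the formation of osteoblasts and on their support of osteoclasts.

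Depth was 15995777 reads in the control library and 14986101 in the treated library at 24 h, and the lowest gene of the table had 12 and 11 reads there, as worked out from the steps in which the CPM values go up. Of 14 listed markers of the osteoblast lineage 12 were in the table. Runx2 was at 116 CPM, Sp7 at 35.1 CPM and Spp1 at 1234 CPM in the control library, while Bglap, osteocalcin, was at 1.13 CPM, and Alpl and Ibsp were not analysed here. Of 12 markers of macrophages and osteoclasts 5 were listed, with a summed level of 177 and 201 CPM in the control libraries at 24 h and 48 h and 169 and 214 CPM in the treated libraries, of which Ctsk and Lyz2 made up most. Csf1r and Cd68 were at most 2.67 CPM in each of the 4 libraries. Cd14 was at 7.06 and 8.40 CPM in the control libraries at 24 h and 48 h and at 10.5 and 12.3 CPM in the treated libraries. The part of these markers in any result was not tested. None of the 7 epithelial or 8 lymphocyte markers was in the table.

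At 24 h, 42 genes were at least 2-fold higher in the treated library (0.345% of those compared) and 22 at least 2-fold lower (0.181%), where a fold is the ratio of CPM + 1. At 1.5-fold the counts were 180 higher (1.48%) and 164 lower (1.35%). The median log2 fold over all genes was 0.02, and 80.1% of genes lay within 1.2-fold. The 95% counting interval of the CPM ratio lay wholly beyond 1 for 4233 genes, of which 2437 differed by less than 1.2-fold. As a measure of how far 2 libraries without LTα1β2 lay apart, 4 genes differed 2-fold between the controls at 48 h and 24 h (0.0329%). These were Fhod3, Gm15910, Egr1 and Kifc2, chosen for naming after their values were seen. In that pair of libraries 170 genes differed 1.5-fold (1.40%), against 344 between treated and control cells at 24 h (2.83%). The comparisons share the 24 h control, and the control pair differs in time.

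The spread of the folds narrowed with level. Among the fifth of genes with the lowest mean CPM (up to 8.03) the SD of the log2 fold was 0.32 between treated and control at 24 h and 0.30 between the controls. Among the fifth with the highest mean CPM (96.4 and above) it was 0.20 and 0.11. The lowest of these bins held 13 of the 42 higher genes, 11 of the 22 lower genes and 3 of the 4 genes that differed between the controls, so the folds of low genes below are the least precise.

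**Figure D1:**
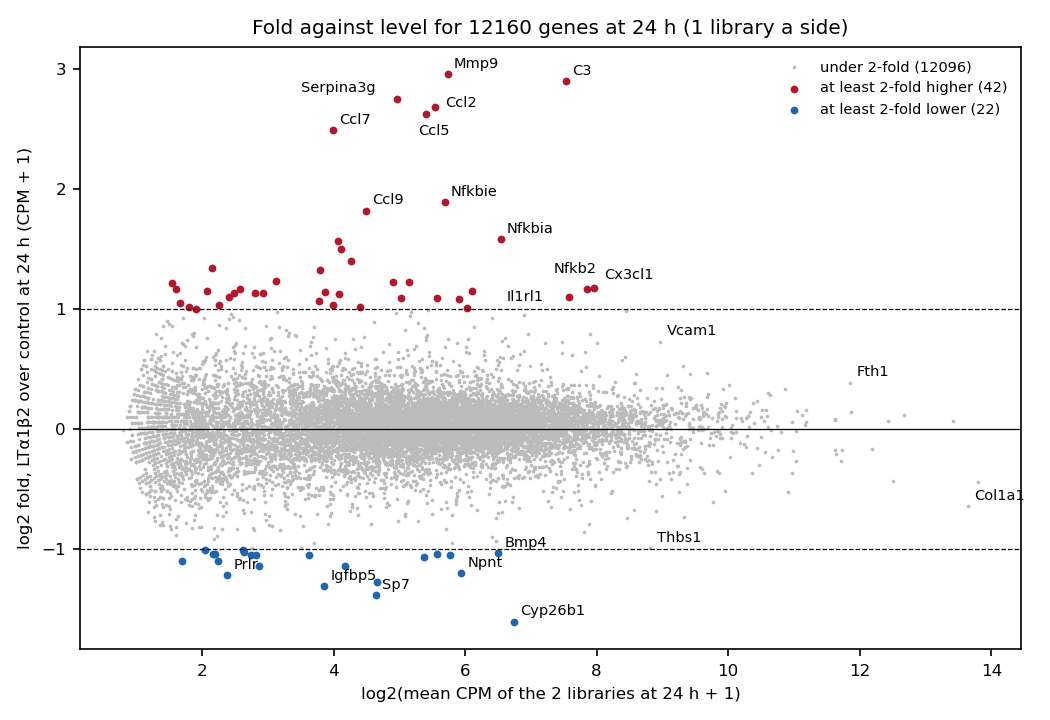
Each dot is 1 of the 12160 genes, placed by the log2 of its mean CPM + 1 in the control and treated libraries at 24 h (horizontal) and its log2 fold on the CPM + 1 scale (vertical), with dashed lines at 2-fold. The 42 higher genes (red) reach a log2 fold of 2.95 for Mmp9 and the 22 lower genes (blue) reach -1.61 for Cyp26b1, while the most abundant genes lie within 2-fold.

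Genes of the receptor pathway itself were examined first. The transcript of the receptor, Ltbr, stood at 156 CPM in the control and 151 CPM with LTα1β2 at 24 h, a CPM ratio of 0.971 (95% counting interval 0.917 to 1.03; folds given with such an interval are plain CPM ratios, counts of genes use CPM + 1), and at 150 and 130 CPM at 48 h. Its level in the treated library thus lay within counting error of the control at 24 h. In bulk RNA fewer cells with a transcript and less of it per cell cannot be told apart. Of 14 compared genes of the lymphotoxin receptor pathway 2 were 2-fold higher, 6 were 1.5-fold higher, 0 were 1.5-fold lower, and the median log2 fold was 0.39. The 6 members past 1.5-fold encode signalling proteins and NF-κB subunits that act below the receptor. Birc3, which encodes an IAP ubiquitin ligase of the TRAF complex, went from 9.57 to 26.8 CPM (2.80-fold, 2.32 to 3.39), against 13.3 CPM in the 48 h control. Its close relative Birc2 went from 26.5 to 49.8 CPM (1.88-fold, 1.66 to 2.12). Map3k14 was at 30.9 and 52.1 CPM (1.69-fold, 1.51 to 1.89), but at 19.6 CPM in the 48 h control and 32.9 CPM in the treated 48 h library. For that kinase gene the control libraries therefore differed as well, and the treated libraries stood above the control of their own time. Traf3, the adaptor that targets NIK for degradation, was 1.54-fold higher (1.42 to 1.67) and Traf2 1.32-fold higher (1.19 to 1.47). The IKK kinase gene Chuk had a ratio of 1.02 (0.95 to 1.09), and the TNF receptor gene Tnfrsf1a 1.01 (0.956 to 1.06).

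Of 14 compared genes for NF-κB subunits and their inhibitors, 3 were 2-fold higher, 6 were 1.5-fold higher and all 14 lay above 0, against 54.9% of all genes, with a median of 0.33; Nfkb2 is in this list and the one before. The largest folds of this list were those of inhibitors of the canonical arm. Nfkbie, which encodes IκBε, had 20.9 and 21.7 CPM in the control libraries at 24 h and 48 h and 80.1 and 62.5 CPM in the treated ones (here and below, 2 control values against 2 treated values are in that order), 3.84-fold at 24 h (3.40 to 4.35). Nfkbia, which encodes IκBα, had 45.7 and 50.5 against 138 and 135 CPM, 3.03-fold at 24 h (2.78 to 3.3). Both controls were close together for either gene, and both treated libraries were far above them. Tnfaip3, which encodes the deubiquitinase A20, went from 23.4 to 46.8 CPM (2.0-fold, 1.76 to 2.27) but stayed just under 2-fold on the CPM + 1 scale, and Tnip1, which encodes its partner, was 1.57-fold higher (1.40 to 1.76). Among the subunits Nfkb2 was the only member past 2-fold, with 142 and 144 against 319.8 and 269.9 CPM (2.24-fold at 24 h, 2.14 to 2.36). Relb went from 26.6 to 41.3 CPM (1.55-fold, 1.37 to 1.76). The canonical subunit genes Rela and Nfkb1 were 1.21-fold (1.13 to 1.29) and 1.19-fold higher (1.12 to 1.26), and Rel had a log2 fold of 0.07.

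The start windows of the 2-fold genes were searched for NF-κB motifs, since members of this group differed together. RefSeq windows (GRCm38.p6) of 300 bases, from 250 before to 50 after a gene's start, were matched by symbol for 31 of the 42 higher genes, 17 of the 22 lower genes and 9239 of the 12160 genes compared. Genes without an entry include Mmp9, Ccl2, Ccl5, Ccl7, Rnf150, Dtx4, Map3k8 and Sp7. The motif GGGANTTTCC, on either strand, was in a window of 3 of the 31 higher genes (9.68%), of 0 of the 17 lower genes and of 42 of the 9239 genes (0.455%). The broader κB consensus, which includes every match of that motif, was in 13 of the 31 (41.9%), 4 of the 17 (23.5%) and 1132 of the 9239 (12.3%). Some genes have several starts. Among genes with 1 window the consensus was in 7 of 21 higher genes, 3 of 9 lower genes (33.3% each) and 9.96% of all, so that its share did not separate higher from lower genes there. The interferon-stimulated response element TTTCNNTTTC, which overlaps neither κB motif in the windows printed here, was in 2 of the 31 (6.45%), 0 of the 17 and 3.76% of all. These are matches of letters and not measured binding. The windows of 5 genes are shown, because they hold the matches in 3 NF-κB genes of the feedback, in 1 chemokine gene and in 1 interferon-inducible GTPase gene, each from 250 bases before the start to the base before it. Capitals mark matches of the κB consensus. The windows are those of Nfkbia (chr12:55492648-55492897, minus strand), Nfkbie (chr17:45555450-45555699, plus), Nfkb2 (chr19:46304487-46304736, plus), Cxcl10 (chr5:92348890-92349139, minus) and Gbp5 (chr3:142496684-142496933, plus).
Nfkbia: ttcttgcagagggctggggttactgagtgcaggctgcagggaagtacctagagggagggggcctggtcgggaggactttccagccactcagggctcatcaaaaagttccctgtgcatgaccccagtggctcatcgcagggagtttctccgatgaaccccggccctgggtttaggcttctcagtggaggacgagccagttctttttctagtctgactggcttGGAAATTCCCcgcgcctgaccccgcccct
Nfkbie: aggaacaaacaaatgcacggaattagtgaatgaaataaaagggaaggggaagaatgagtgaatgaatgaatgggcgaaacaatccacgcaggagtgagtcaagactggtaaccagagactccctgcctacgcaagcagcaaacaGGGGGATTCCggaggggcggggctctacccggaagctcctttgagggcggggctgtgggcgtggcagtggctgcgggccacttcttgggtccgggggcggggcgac
Nfkb2: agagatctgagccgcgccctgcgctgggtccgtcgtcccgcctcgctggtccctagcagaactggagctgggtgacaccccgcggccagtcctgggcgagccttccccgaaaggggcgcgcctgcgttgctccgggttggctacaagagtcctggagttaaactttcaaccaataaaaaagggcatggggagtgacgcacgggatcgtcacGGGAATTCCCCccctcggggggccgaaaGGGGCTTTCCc
Cxcl10: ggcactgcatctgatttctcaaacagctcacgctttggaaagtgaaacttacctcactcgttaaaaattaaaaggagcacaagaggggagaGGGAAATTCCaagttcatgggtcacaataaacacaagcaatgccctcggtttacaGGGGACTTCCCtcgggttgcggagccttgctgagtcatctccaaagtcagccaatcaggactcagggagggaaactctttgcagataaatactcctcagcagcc
Gbp5: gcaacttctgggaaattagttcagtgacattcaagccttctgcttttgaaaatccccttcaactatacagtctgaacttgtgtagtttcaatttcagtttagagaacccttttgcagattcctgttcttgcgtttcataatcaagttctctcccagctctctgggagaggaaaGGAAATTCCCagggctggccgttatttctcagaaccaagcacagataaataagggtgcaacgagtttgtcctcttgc
In Nfkbia and Gbp5 the match has the letters GGGAATTTCC on the strand opposite to the gene, with its first base 29 and 77 bases before the start. Nfkbie holds GGGGGATTCC from 106 bases before the start. In the Nfkb2 window shown overlapping matches lie from 39 bases before the start and another from 11 bases before it, while GGGANTTTCC lies in the windows of its other 2 starts. Cxcl10 holds GGGAAATTCC from 159 bases before the start and overlapping matches from 104 bases before it, and its interferon-stimulated response element match lies from 213 bases before the start. In Gbp5 that element lies 165 bases before the start.

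**Figure D2:**
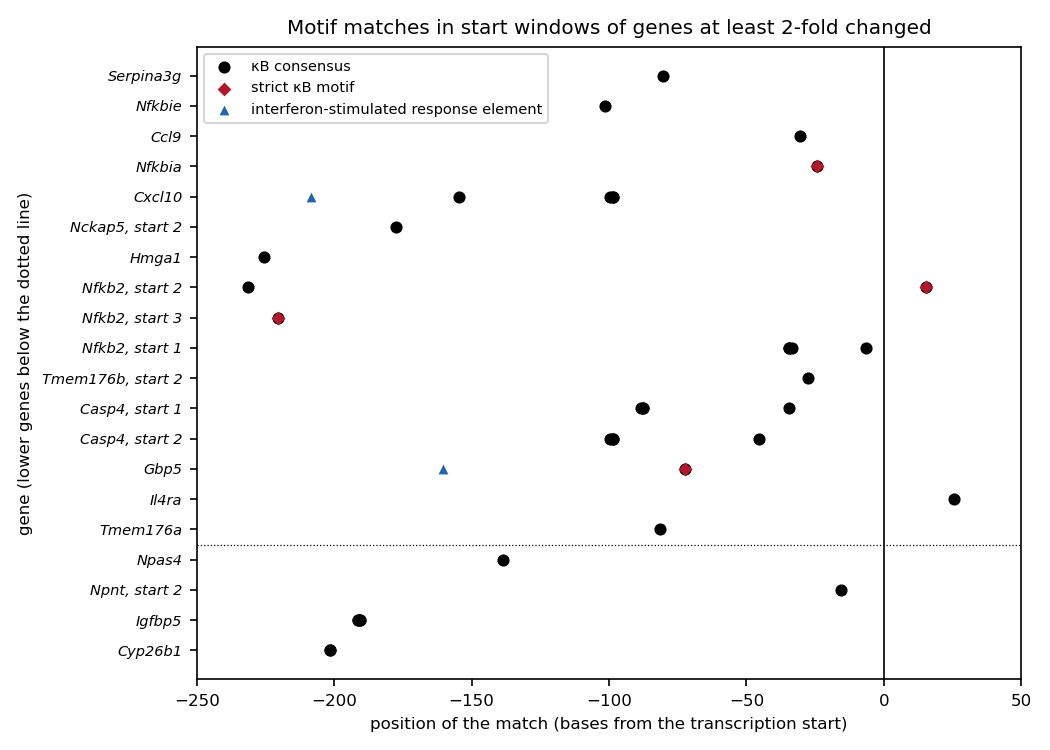
Positions of motif matches, in bases from the transcription start (horizontal), in the 300-base windows of genes at least 2-fold higher (above the dotted line) or lower (below it) at 24 h, with 1 row per start window that holds a match. Black dots are the κB consensus, red diamonds GGGANTTTCC and blue triangles the interferon-stimulated response element; matches occur in 13 higher and 4 lower genes, and the red diamonds, which lie on black dots, are those of Nfkbia, Nfkb2 and Gbp5.

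Genes of secreted factors were among those with the highest folds. All 6 compared inflammatory chemokine genes, of 18 listed, were at least 2-fold higher, against 0.345% of all genes, with a median log2 fold of 2.15. The list was chosen with earlier results of these data known, so its count is no separate check. Its other members were not compared, and the chemokine gene Cxcl12 (1.31-fold) is in another list. Ccl2, a monocyte attractant, had 11.5 and 10.2 CPM in the control libraries at 24 h and 48 h and 79.4 and 120.5 CPM in the treated ones (6.90-fold at 24 h, 5.91 to 8.11). Ccl7, which attracts monocytes as well, had 3.81 and 3.51 against 26 and 43.0 CPM (6.82-fold at 24 h, 5.20 to 9.09). Ccl5, which attracts T cells, had 10.9 and 9.01 against 72.3 and 158 CPM (6.64-fold at 24 h, 5.66 to 7.84). The controls of each gene lay close together, and the treated 48 h library was the highest for all 3. Ccl9, a further CC chemokine gene, went from 8.94 to 34 CPM (3.81-fold, 3.16 to 4.62). Cxcl10, a ligand of CXCR3, went from 7.50 to 24.2 CPM (3.22-fold, 2.61 to 3.99). Cx3cl1, the membrane-bound fractalkine gene, went from 152 to 344 CPM (2.26-fold, 2.16 to 2.38), and at 48 h it was at 161 and 252 CPM, so that it was highest in the treated 24 h library.

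The genes of single highest fold encode a protease, a complement protein and a protease inhibitor. Mmp9, gelatinase B, had 11.2 CPM in the 24 h control, 20.8 CPM in the 48 h control, 93.4 CPM in the treated 24 h library and 147 CPM in the treated 48 h library (8.35-fold at 24 h, 7.14 to 9.81). Against the 48 h control its 24 h log2 fold would be 2.11 in place of 2.95. C3, the central complement component, had 42.9 and 42.1 against 325 and 393 CPM (7.59-fold at 24 h, 7.0 to 8.23). Serpina3g, of a serine protease inhibitor family with closely similar copies that may share reads, had 7.06 and 9.39 against 53.3 and 68.2 CPM (7.55-fold at 24 h, 6.19 to 9.27). None of these 3 was accompanied by its list. Of 30 compared matrix proteases and inhibitors 1 was 2-fold higher and 0 lower (median -0.07), of 7 complement and acute-phase genes 1 and 0 (0.23), and of 8 serpin genes 1 and 0 (-0.04). Timp1, which encodes an inhibitor of Mmp9 and other metalloproteases, was 1.56-fold higher (1.49 to 1.64) and Ptx3, a pentraxin gene, 1.49-fold higher (1.43 to 1.55). Adamts9 and Adamts1, which encode proteases of matrix proteoglycans, were at 0.626 (0.565 to 0.693) and 0.660 of control (0.627 to 0.693).

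**Figure D3:**
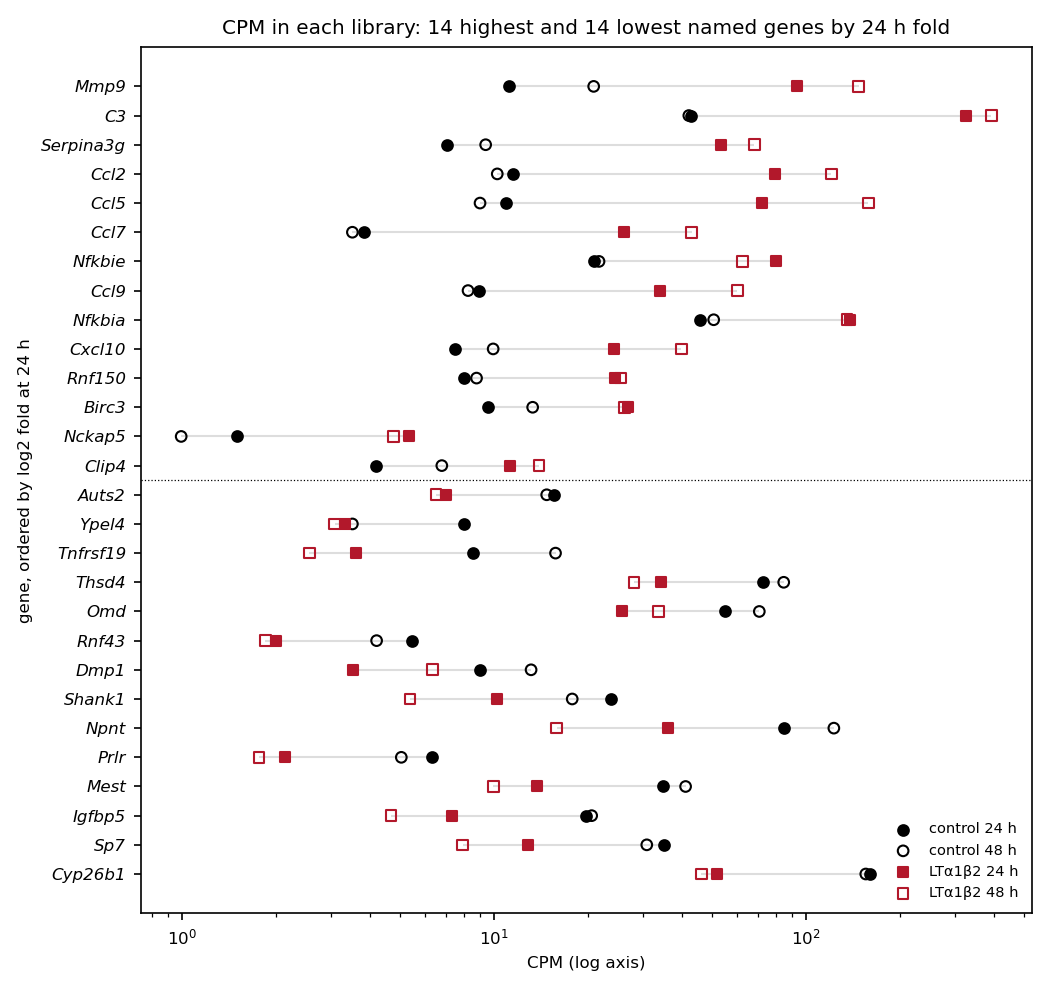
CPM (log axis) of each of the 4 libraries for the 14 highest (above the dotted line) and 14 lowest named genes by log2 fold at 24 h, with circles for control, squares for LTα1β2, filled symbols for 24 h and open symbols for 48 h. For Mmp9 the controls are at 11.2 and 20.8 CPM and the treated libraries at 93.4 and 147 CPM, and for Ypel4 the 48 h control (3.51 CPM) lies beside the treated libraries.

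Among cytokines and growth factors 0 of 23 compared genes were 2-fold changed and 1 was 1.5-fold higher (median 0.04). That gene was Tslp, which encodes an epithelial and stromal alarmin, at 1.0 and 2.0 CPM without and with LTα1β2 and 1.91 CPM in the 48 h control. Lif, a gp130 cytokine gene, was 1.49-fold higher (1.24 to 1.80) and Il34, a ligand of the macrophage receptor CSF1R, 1.51-fold (1.12 to 2.04). Csf1, the other ligand of that receptor, went from 1438 to 1751 CPM (1.22-fold, 1.2 to 1.24) and was at 1276 and 1289 CPM at 48 h. It was thus above control at 24 h and within 1.01-fold of it at 48 h. Tnfrsf11b, which encodes osteoprotegerin, the decoy receptor for the osteoclast factor RANKL, was at 0.862 of control (0.807 to 0.920), and Inhba, an activin subunit gene, at 0.717 (0.665 to 0.772). Of 10 osteoclast-regulating factors 0 were past 1.5-fold.

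Genes of cytokine receptors and signal adaptors were mostly above control. Of 29 compared genes of this list 23 lay above 0, against 54.9% of all genes. In it 3 were 2-fold higher, 7 were 1.5-fold higher and 0 were 1.5-fold lower, with a median of 0.16. Il1rl1, which encodes the IL-33 receptor ST2, had 121 and 127 against 259 and 291 CPM (2.15-fold at 24 h, 2.03 to 2.27). Il4ra and Il13ra1, which encode the chains of the type II receptor for interleukins 4 and 13, went from 19.9 to 43.3 CPM (2.18-fold, 1.90 to 2.5) and from 80.0 to 156 CPM (1.95-fold, 1.82 to 2.08). Both chains of that receptor were higher at 24 h, and at 48 h their ratios were 1.53 and 2.07. The other genes past 1.5-fold were Tlr2, a receptor for bacterial lipopeptides (1.81-fold, 1.66 to 1.98), Osmr, the oncostatin M receptor gene (1.73-fold, 1.65 to 1.81), Il15ra (1.73-fold, 1.46 to 2.06) and Map3k8. Map3k8, which encodes the kinase Tpl2 of the NF-κB1 complex, was at 1.5 and 4.0 CPM at 24 h and 1.68 and 1.94 CPM at 48 h, which is 24 against 60 reads at 24 h. Csf1r was at 0.867 CPM in treated and 1.56 CPM in control cells. Within the TNF receptor superfamily, Tnfrsf9, the 4-1BB gene, was at 4.94 and 10.7 CPM (2.16-fold, 1.64 to 2.87) and Fas, a death receptor gene, 1.74-fold higher (1.55 to 1.95). Tnfrsf19, a member expressed in mesenchymal progenitors, was lower, at 8.56 and 3.60 CPM, with 15.7 and 2.55 CPM at 48 h. The list of 16 had 0 genes 2-fold higher and 1 lower, 2 and 1 at 1.5-fold.

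Of 12 compared adhesion genes 1 was 2-fold higher and 2 were 1.5-fold higher. In this list 7 genes lay above 0 and 5 below, with a median of 0.06. Mcam and Alcam, among those below, were at 0.579 (0.364 to 0.905) and 0.772 of control (0.691 to 0.862). Vcam1, which encodes a ligand of the integrin VLA-4 on leukocytes, had 376 and 392 against 622 and 585 CPM (1.66-fold at 24 h, 1.6 to 1.71). Icam1, which encodes a ligand of LFA-1, was low throughout, with 1.06 and 0.764 against 3.27 and 2.55 CPM, which is 17 against 49 reads at 24 h (3.08-fold, 1.74 to 5.70). Icam5, another member of that family, had 3.38 and 8.61 CPM at 24 h (2.55-fold, 1.84 to 3.57). In GENCODE M21 (GRCm38) Icam1 (chromosome 9, 21015985 to 21028817) and Icam5 (21032073 to 21039036) lie on the plus strand 3255 bases apart. Ccl2 and Ccl7 lie 8258 bases apart, and Ccl5 and Ccl9 42400, so that 6 of the 42 higher genes had another of them within 100 kb without overlap. Nfkb2 and Psd, and Tmem176a and Tmem176b, overlap at their ends on opposite strands. Whether reads were counted by strand is not stated in the sources used, so a share of the reads of Psd (29.4 and 63.7 CPM) could stem from Nfkb2.

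Of 20 apoptosis regulators 1 was 2-fold higher and 2 were 1.5-fold higher, and 19 lay above 0 with a median of 0.19. Casp4, which encodes the sensor caspase of cytosolic lipopolysaccharide, went from 9.63 to 22.2 CPM (2.30-fold, 1.90 to 2.80) and was at 7.71 and 39.5 CPM at 48 h. Gsdmd, the gene of the pore protein that this caspase cleaves, was 1.45-fold higher (1.19 to 1.75).

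Genes known as interferon-inducible lay mostly above control by small folds at 24 h. Of 17 compared guanylate-binding, IRG and schlafen genes 2 were 2-fold higher, 5 were 1.5-fold higher and all 17 lay above 0, with a median of 0.33. Slfn2, a schlafen gene, had 20.3 and 18.0 against 48.8 and 103 CPM (2.40-fold at 24 h, 2.10 to 2.74). Gbp5 and Gbp4, genes of GTPases that act on vacuoles of intracellular pathogens, were 2.61-fold (1.77 to 3.92) and 1.96-fold higher (1.73 to 2.23). Both are of a gene family in which reads may be shared. Of 35 interferon-stimulated effector genes 0 were 2-fold and 2 were 1.5-fold higher, and 31 lay above 0 with a median of 0.17. These 2 were Zbp1, a sensor of Z-form nucleic acid, at 6.94 and 12.5 CPM (1.81-fold, 1.42 to 2.31), and Parp14 at 89.2 and 138 CPM (1.54-fold, 1.44 to 1.65). Ifit1 and Ifit3, effectors that bind viral RNA, were 1.12-fold (1.06 to 1.18) and 1.12-fold higher (1.06 to 1.19). Isg15, a ubiquitin-like effector and 1 of the 4 members below 0, was at 89.2 and 80.5 CPM at 24 h (0.902, 0.835 to 0.975) and at 84.6 and 232 CPM at 48 h. At 24 h its treated level was therefore below control, and at 48 h above. Irf1, a transcription factor gene that also responds to NF-κB, was the 1 of 18 interferon signalling factors past 1.5-fold (1.67-fold, 1.55 to 1.80). Stat2, which carries the type I interferon signal, had a ratio of 0.967 (0.923 to 1.01).

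Of 21 compared genes of antigen presentation 2 were 2-fold higher, 3 were 1.5-fold higher and 19 lay above 0, with a median of 0.34. Psmb10, an immunoproteasome subunit gene, had 42.3 and 40.3 against 86.1 and 124 CPM (2.03-fold at 24 h, 1.85 to 2.24). The subunit genes Psmb9 and Psmb8 were 1.38-fold (1.2 to 1.57) and 1.33-fold higher (1.22 to 1.45). Tapbp, which encodes the chaperone tapasin, was 1.52-fold higher (1.46 to 1.58). The class I heavy chain genes H2-K1 and H2-D1, a family of similar copies, were 1.44-fold (1.39 to 1.48) and 1.23-fold higher (1.2 to 1.25). Cd74, the invariant chain gene of class II presentation, was at 2.5 and 6.67 CPM, which is 40 against 100 reads. Tap1, a peptide transporter gene, had a ratio of 1.07 (1.00 to 1.14).

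Outside the lists lay 18 of the 42 higher genes. Of these Hmga1, which encodes a chromatin architectural protein, went from 16.9 to 40.8 CPM (2.41-fold, 2.08 to 2.79), and its 48 h values were 17.2 and 40.6 CPM. Tmem176b and Tmem176a, neighbouring genes of membrane proteins, went from 41.6 to 93.5 CPM (2.25-fold, 2.05 to 2.47) and from 37.5 to 80.5 CPM (2.15-fold, 1.94 to 2.37). Rnf150, which encodes a membrane ubiquitin ligase, went from 8.0 to 24.4 CPM (3.05-fold, 2.49 to 3.76). Values at 48 h for Rnf150 were 8.78 and 25.4 CPM, so that for it and Hmga1 the values of one time nearly repeated those of the other. Bdkrb1, the inducible bradykinin receptor gene, was at 2.69 and 7.27 CPM (2.71-fold, 1.88 to 3.95). Stx11, a syntaxin gene of vesicle fusion, was 2.23-fold higher (1.79 to 2.78), Ampd3, AMP deaminase, 2.16-fold (1.77 to 2.64), Ccdc141 2.10-fold (1.77 to 2.49) and Gpat3, an enzyme gene of glycerolipid synthesis, 2.54-fold (1.68 to 3.92). Nckap5, Clip4 and Strip2 had 1.5, 4.19 and 0.75 CPM without and 5.34, 11.2 and 3.07 CPM with LTα1β2. These 3 rest on 12 to 67 control reads, and Strip2 and Clip4 were also higher in the 48 h control (1.30 and 6.80 CPM) than in that at 24 h. Mt2 and Dtx4, from the metallothionein and Notch lists, were 2.96-fold (1.86 to 4.82) and 2.36-fold higher (1.91 to 2.92). Of the 42 genes 38 encode proteins.

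The lower genes included a regulator and several products of osteoblasts. Of 22 compared genes listed as osteoblast transcription factors 1 was 2-fold lower and 0 were higher past 1.5-fold. In this list 18 lay below 0, against 45.1% of all genes, with a median of -0.15. The list also holds Sox9, a chondrocyte marker, and Prrx1, a stromal marker. These 2 are among the 18, with ratios of 0.936 (0.827 to 1.06) and 0.983 (0.960 to 1.01). Further members of the 18 had intervals that include 1 as well. Sp7, which encodes osterix, the factor required for commitment to the osteoblast, had 35.1 and 30.8 against 12.8 and 7.93 CPM (0.365 of control at 24 h, 0.308 to 0.430). Runx2, which acts before Sp7 in the lineage, had 116 and 126 against 91.5 and 67.5 CPM (0.788 of control at 24 h, 0.735 to 0.846). Dlx5, a homeobox gene that acts on both, was at 0.732 of control (0.661 to 0.810). Sp7 was thus much further below control than the factors that act before it, and Twist1 and Msx2 had log2 folds of -0.16 and 0.00. Of 18 genes of the osteoblast matrix and mineral 3 were 2-fold lower and 6 were 1.5-fold lower, with a median of -0.31. Npnt, nephronectin, had 84.6 and 123 against 36.1 and 15.9 CPM (0.426 at 24 h, 0.385 to 0.472). Omd, osteomodulin, had 55.1 and 70.8 against 25.8 and 33.6 CPM (0.468 at 24 h, 0.414 to 0.528). Dmp1, of mineralising cells, had 9.0 and 13.1 against 3.54 and 6.34 CPM (0.393, 0.281 to 0.542). Fgfr2 and Fgfr3, FGF receptor genes active in bone growth, were at 0.532 (0.490 to 0.577) and 0.590 of control (0.498 to 0.697). Of these 18 matrix and mineral genes 13 lay below 0 and 5 above. Among those above, Tnn, tenascin N, was 1.41-fold higher (1.26 to 1.58), and Spp1, osteopontin, was at 1234 and 1430 CPM.

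Genes of growth factor pathways that act on osteoblasts were lower together in part. In the BMP list Bmp4, a ligand gene, was 2-fold lower, from 121 to 58.3 CPM (0.484, 0.446 to 0.524), and the genes of 2 secreted BMP antagonists were nearly so. These were Chrd, chordin, at 16.2 and 7.87 CPM (0.486, 0.388 to 0.607), and Nog, noggin, at 4.94 and 2.14 CPM (0.432, 0.277 to 0.660). Grem1, the gene of another antagonist, was 1.41-fold higher (1.28 to 1.54), and the target genes Id2 and Id3 were at 0.798 (0.737 to 0.865) and 0.791 (0.741 to 0.845). The related genes Id1 and Id4 had ratios of 0.892 (0.783 to 1.02) and 1.03 (0.972 to 1.10), with intervals that include 1. In all 3 of 26 BMP genes were 1.5-fold lower, with a median of -0.06. Of 31 compared Wnt genes 1 was 2-fold lower, 8 were 1.5-fold lower, 0 were 1.5-fold higher and 25 lay below 0, with a median of -0.33, the lowest of the 40 lists. Rnf43, which encodes a ligase that removes Wnt receptors and is itself a Wnt target, was at 5.44 and 2.0 CPM (0.368, 0.235 to 0.563). The target Axin2 was at 3.81 and 2.07 CPM (0.542, 0.340 to 0.849), which is close to the low end of the table. Ligand genes Wnt4 and Wnt10b were at 0.439 (0.312 to 0.608) and 0.641 of control (0.565 to 0.728). The antagonist genes Sfrp2 and Wif1 were at 0.597 (0.574 to 0.621) and 0.575 (0.453 to 0.727), and Lrp4, a receptor for sclerostin, at 0.616 (0.571 to 0.665). The lower Wnt genes thus took in ligands, antagonists, a receptor and targets. Wnt5a, a ligand of the β-catenin-independent branch, was 1.33-fold higher (1.11 to 1.59), and Ctnnb1, β-catenin, had a log2 fold of -0.04.

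Igfbp5, an IGF-binding protein gene of bone, had 19.7 and 20.5 against 7.34 and 4.67 CPM (0.373 at 24 h, 0.297 to 0.465). The growth factor gene Igf1 was at 0.658 of control (0.620 to 0.698), and Pappa2 and Pappa, which encode proteases that release IGF from its binding proteins, were at 0.676 (0.654 to 0.698) and 0.666 (0.561 to 0.788). Of 12 IGF genes 1 was 2-fold and 2 were 1.5-fold lower. Cyp26b1, which encodes an enzyme that degrades retinoic acid, had the lowest fold on the CPM + 1 scale, with 160 and 155 against 51.7 and 46.1 CPM (0.324, 0.298 to 0.351). Of the other 8 compared retinoic acid genes none was past 1.5-fold on the CPM + 1 scale. Dhrs3, a retinaldehyde reductase gene that responds to retinoic acid, was at 8.88 and 5.74 CPM (0.646, 0.489 to 0.851) and Rdh10, of retinoic acid synthesis, 1.38-fold higher (1.15 to 1.66). In the Notch list Hes1, a target, was at 0.559 of control (0.418 to 0.743) and Lfng, a modifier of the receptors, at 0.602 (0.529 to 0.685), while Rbpj, the DNA-binding partner, was 1.27-fold higher (1.23 to 1.31).

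In reads rather than folds the largest difference was in collagen. Col1a1, the α1 chain of type I collagen, had 15684 CPM in the control and 10034 CPM in the treated library at 24 h (0.640, 0.636 to 0.644), and Col1a2, the α2 chain, 16407 and 12046 CPM (0.734, 0.730 to 0.739). The 2 genes together took 3.21% of the reads in control and 2.21% in treated cells, so that their sum fell by 10010 CPM, which is 18.2% of all CPM lost by the genes that were lower. The 22 genes at least 2-fold lower accounted for 0.798% of that loss, and the 42 genes at least 2-fold higher for 3.03% of the CPM gained. Fn1, fibronectin, followed with 6702 and 4952 CPM (0.739, 0.732 to 0.746), then Col3a1 of type III collagen with 2270 and 1578 CPM (0.695, 0.684 to 0.707), and Sparc, a collagen-binding protein of bone matrix, with 3688 and 3058 CPM (0.829, 0.819 to 0.839). Gains were smaller and more evenly spread. Fth1, the ferritin heavy chain gene, gained most, from 3223 to 4207 CPM (1.31-fold, 1.29 to 1.32), followed by mt-Cytb, mt-Co1, Pabpc1 and mt-Nd1 with ratios from 1.04 to 1.26. In the 48 h control mt-Co1 was at 11812 CPM, above the treated 24 h library (11234 CPM), and mt-Nd1 at 3898 CPM, close to it (3903 CPM). There mt-Cytb was at 6553 CPM and Pabpc1 at 1589 CPM, below their treated 24 h levels of 6782 and 2077 CPM. Since CPM sums to the same total in each library, lower collagen raises the share of other genes. Rescaling by the median of ratios or by trimmed means moved the median log2 fold from 0.02 to 0.01 and -0.01.

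**Figure D4:**
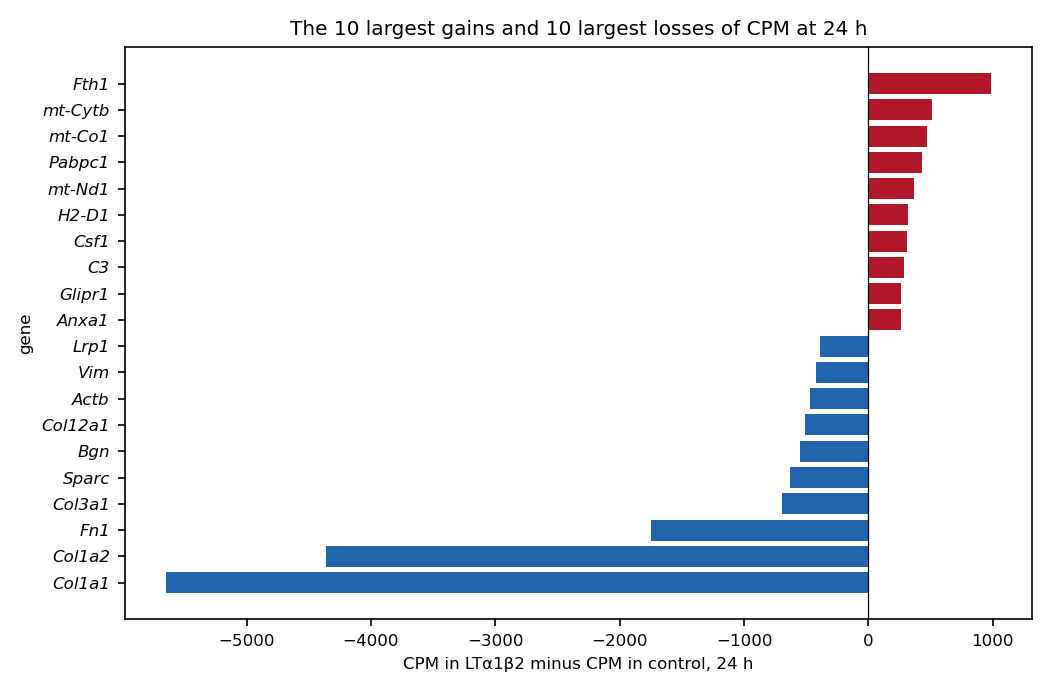
Difference in CPM between the treated and the control library at 24 h (horizontal) for the 10 genes with the largest gain (red bars) and the 10 with the largest loss (blue bars), 1 library a side with no error bar. The bars of Col1a1 and Col1a2 reach -5649 and -4361 CPM, and the largest gain, of Fth1, is 983 CPM.

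Matrix genes were below control over a broad front with few large folds. Of 34 compared glycoprotein and proteoglycan genes 2 were 2-fold lower, 7 were 1.5-fold lower, 0 were 1.5-fold higher and 30 lay below 0, with a median of -0.29. The 2 past 2-fold are Npnt and Omd, which this list shares with that of osteoblast matrix. Thbs1, thrombospondin, went from 600.1 to 300.1 CPM (0.50, 0.483 to 0.518), just under the 2-fold rule, and Fbn2, fibrillin, from 115 to 59.7 CPM (0.517, 0.477 to 0.561). The small leucine-rich proteoglycan genes Ogn and Aspn were at 0.60 (0.583 to 0.617) and 0.622 (0.602 to 0.643), while Dcn and Bgn of the same family had log2 folds of -0.14 and -0.17. Of 20 collagen genes 2 were 1.5-fold lower, 0 higher and 17 lay below 0 (median -0.27); beside Col1a1 this was Col11a1, which encodes a chain of the type XI collagen that nucleates fibrils, at 289 and 158 CPM (0.548, 0.521 to 0.576). Of 21 collagen-modifying enzymes 0 were past 1.5-fold and 16 lay below 0 (median -0.16), with Lox at 682 and 688 CPM. Of 21 contractile and YAP target genes 3 were 1.5-fold lower and 0 higher (median -0.24). They were Myl9 (0.593, 0.548 to 0.641), Actg2 (0.609, 0.470 to 0.786) and Acta2, smooth muscle actin (0.653, 0.637 to 0.670). Ccn2 of the YAP targets had a log2 fold of -0.24, and Ankrd1 of -0.07. All 22 cholesterol synthesis and uptake genes lay below 0 at 24 h, with a median of -0.23 and 2 past 1.5-fold, Hsd17b7 (0.649, 0.586 to 0.719) and Fdps (0.611, 0.436 to 0.850). The same list had a median log2 change of 0.23 from the 24 h control to the 48 h control, so that it differed by a like amount between libraries without LTα1β2.

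Outside the lists lay 13 of the 22 lower genes. Mest, an imprinted gene of mesoderm, had 34.7 and 41.1 against 13.7 and 9.95 CPM (0.396, 0.336 to 0.466). Prlr, the prolactin receptor gene, was at 6.31 and 2.14 CPM (0.338, 0.220 to 0.508), and Shank1, which encodes a scaffold protein, at 23.8 and 10.2 CPM (0.430, 0.354 to 0.520). Thsd4, which encodes a protein that promotes fibrillin assembly, went from 72.5 to 34.4 CPM (0.474, 0.426 to 0.526). Tle2, a Groucho corepressor gene, went from 62.9 to 29.9 CPM (0.475, 0.424 to 0.532), with 42.1 CPM in the 48 h control. Auts2, Aoc3, Insc and Npas4 were at 0.450, 0.386, 0.427 and 0.385 of control. Ypel4 and Necab3 stood apart, since their 48 h controls were close to the treated 24 h library. Ypel4 had 8.0 and 3.51 CPM in the controls and 3.34 and 3.08 CPM in treated cells, and Necab3 7.31 and 3.59 against 3.07 and 2.73 CPM. For both the difference lies between the 24 h control and the other 3 libraries.

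Among the remaining lists the highest median was that of homeostatic chemokines and stromal organiser genes, 0.38 over 3 compared genes, of which 0 were past 1.5-fold. They were Pdpn, podoplanin (1.34-fold, 1.25 to 1.45), Cxcl12, a chemokine gene of bone marrow stroma (1.31-fold, 1.26 to 1.36), and Il7, a lymphocyte growth factor gene (1.21-fold, 1.06 to 1.39). Of 14 genes of cytosolic nucleic acid sensing 12 lay above 0 with a median of 0.21, and Zbp1 was the 1 past 1.5-fold. Of 25 metallothionein and antioxidant genes 18 lay above 0 with a median of 0.14, and the 2 past 1.5-fold were Mt2 and Slc7a11, the cystine transporter gene (1.63-fold, 1.2 to 2.23). The cell cycle list had 0 of 33 genes past 1.5-fold and a median of 0.06, with Mki67, the proliferation marker gene, at 514 and 536 CPM and Ccnd2, cyclin D2, at 0.775 of control (0.756 to 0.795). The lists of cell cycle inhibitors (15 genes), stress response (24), glycolysis (22), fatty acid genes (18), mitochondrially encoded genes (14) and reference genes (12) also had 0 past 1.5-fold. Of 29 immediate early genes 1 was past 1.5-fold on the CPM + 1 scale, Junb, an AP-1 gene (1.66-fold, 1.57 to 1.75), and Egr1, at 102 and 76.4 CPM at 24 h, was at 44.4 CPM in the 48 h control. Of 9 adipocyte and C/EBP genes 1 was 1.5-fold higher, Cebpd, an acute-phase transcription factor gene (1.92-fold, 1.77 to 2.08). In all 21 of the 40 lists held a gene past 2-fold.

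**Figure D5:**
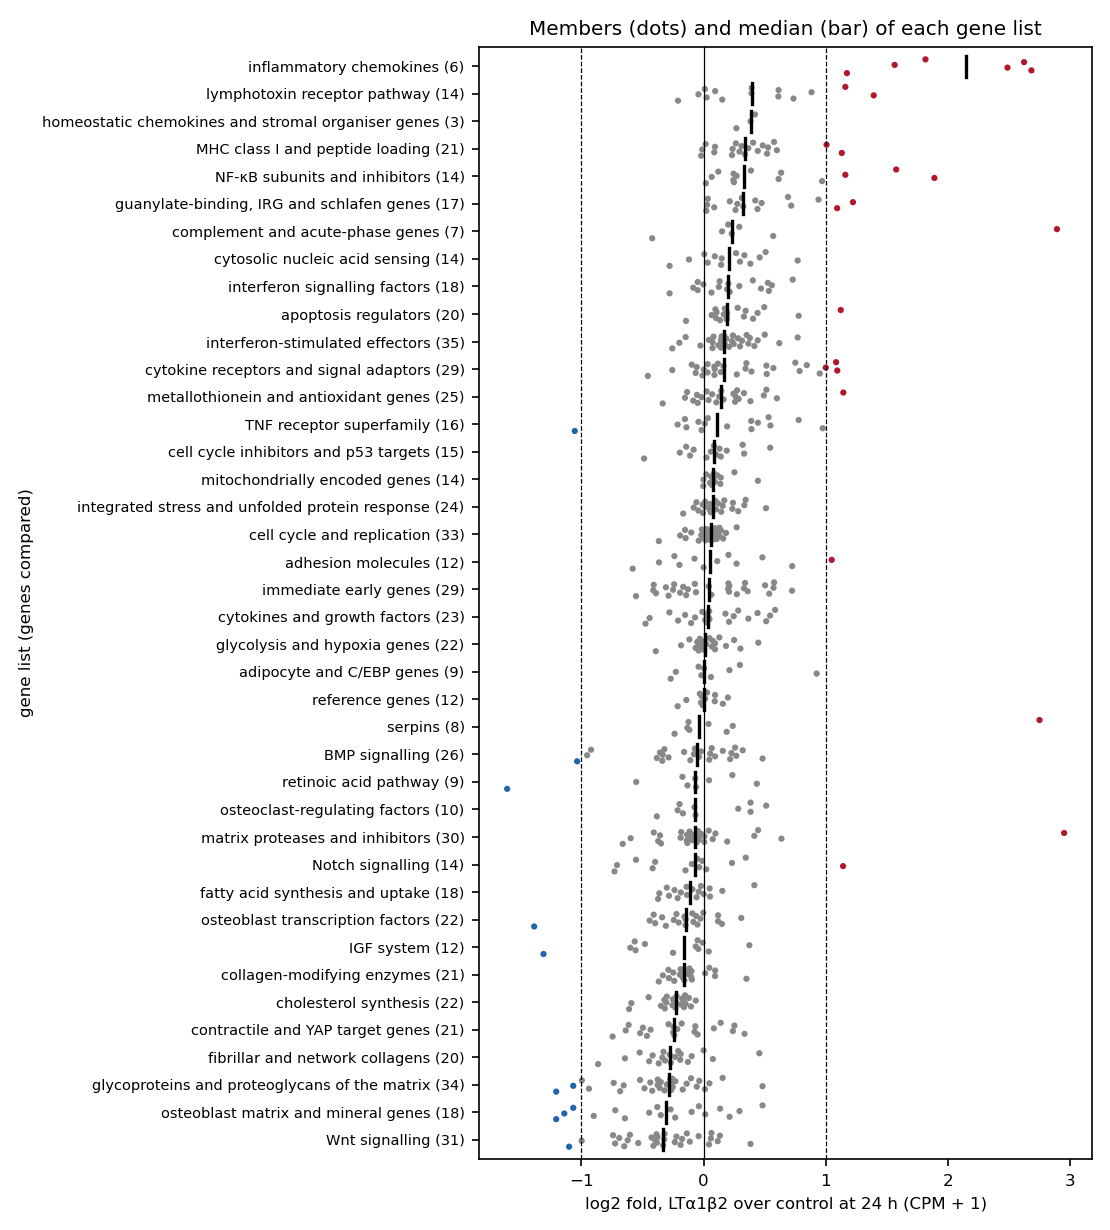
Log2 fold at 24 h (horizontal, CPM + 1 scale) of the compared members of each of 40 gene lists, with their number in brackets; each dot is a gene (red at least 2-fold higher, blue at least 2-fold lower) and each bar the list median. Medians run from 2.15 for inflammatory chemokines to -0.33 for Wnt signalling, while lists such as serpins and matrix proteases hold 1 red dot and a median near 0.

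The 48 h libraries, which share no library with the 24 h comparison, gave the same direction for 41 of the 42 higher and 21 of the 22 lower genes. The share of all genes with the same direction at both times was not worked out, so these counts have no background share beside them. At 48 h 26 of the 42 and 13 of the 22 were 2-fold too (1.86% and 0.715% of all genes at 48 h). The fold was further from 0 at 48 h for 16 of the 42 and 11 of the 22. Against the 48 h control in place of the 24 h control, with the same treated library, 31 of the 42 and 10 of the 22 stayed 2-fold. All 64 lay beyond both controls, but beyond the 24 h control they lie by the rule that chose them. The share of all genes beyond both controls was not worked out, so these counts are no separate check. Just inside the 2-fold rule were Map3k8 and Psmb10 (log2 folds of 1.00 and 1.01) and Npas4 and Insc (-1.01 each), and just outside it Lxn and Dclk1 (0.99 and 0.98) and Wnt4 and Thbs1 (-1.0 each). The counting interval lay beyond 1.5-fold for all 64 genes, and beyond 2-fold for 22 of the 42 and 5 of the 22. The 64 genes were chosen by size from the same reads, so these intervals are no separate check of them.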

How the data were processed

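RNA of 4 libraries of mouse 3T3 cells, 1 in each group, was sequenced, and the control and the LTα1β2 library at 24 h were compared. Total RNA was converted with a strand-specific kit and sequenced in paired ends, per the labels' protocols. The submitters' processing notes name edgeR 3.30.0; for the aligner, counter, build and annotation, the sources used here name none. The authors deposited CPM values in 1 table, and each column sums to 1000000. The table holds no value of 0, so a gene silent in a library is not analysed here. Each CPM value was a whole multiple of 1 step per library (100% within 0.01 of a step), and these steps gave read numbers for exact 95% intervals of the CPM ratio (conditional binomial, Clopper-Pearson). The intervals cover counting error only.

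Symbols and positions came from GENCODE M21 (12205 of 12208 identifiers found without version). Folds are log2 differences of CPM + 1, a scale on which low genes appear to change less than they do. With 1 library a side there was no test, and genes were counted at 2-fold and 1.5-fold. Calculations used Python 3.11.15 and scipy 1.17.1 and were tested on simulated reads. The members and the 40 gene lists were chosen with earlier results of these data known. Genes were named if 2-fold changed with an informative symbol, among the 5 largest folds of a list, among the largest gains or losses of CPM, near the threshold, or always (Ltbr, Nfkb2, Relb, Map3k14, Nfkbia, Runx2, Sp7, Alpl, Col1a1, Tnfrsf11b, Csf1); other genes named to show a list's further members were chosen after their values were seen. Alternatives were other pseudocounts, filters, thresholds, rescalings and control references. A few genes that the naming rule or the lists hold are not reported here, though they remain in the counts and medians.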

Additional observations from a re-analysis of the deposited data

Results flagged for a closer look

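The counting intervals at 24 h and 48 h lay beyond control on opposite sides for 548 of the 12160 genes and for 38 of the 712 genes of the lists. The difference between the times was not tested for any of them, and the genes given here are those of the naming rule, those the report names and a few list members chosen after their values were seen. A330074K22Rik, a long non-coding RNA gene, and Gm14597 are given by another rule, 2-fold at 24 h with the other sign at 48 h. Their 48 h counting intervals include 1 (0.619 to 1.17 and 0.700 to 1.61). In log2 fold A330074K22Rik went from 1.13 at 24 h to -0.20 at 48 h, with 3.75 and 9.41 CPM in control and treated cells at 24 h and 7.33 and 6.25 CPM at 48 h. Gm14597 had -1.05 and 0.07, with 5.06 and 1.94 CPM at 24 h and 3.89 and 4.14 CPM at 48 h. Loxl4, a lysyl oxidase gene, had 0.35 and -0.25, Cdk6, a cell cycle kinase gene, 0.27 and -0.18, and Bub1b, a spindle checkpoint gene, 0.16 and -0.13, each with counting intervals on opposite sides of control. The same held for Tnn, tenascin N (0.48 and -0.57), Vcan, versican (0.16 and -0.63), Mki67 (0.06 and -0.62) and Lyz2 (-0.19 and 0.20). Among interferon-stimulated genes it held for Isg15 (-0.15 and 1.44), Usp18, a protease gene that removes its product from proteins (-0.20 and 1.02), and Oas1g (-0.26 and 0.92). The median of the 16 TNF receptor superfamily genes was 0.11 at 24 h and -0.21 at 48 h. Medians of 5 further lists changed sign with a 24 h size under 0.1: adhesion (0.06 and -0.16), serpins (-0.04 and 0.27), immediate early genes (0.04 and -0.04), cell cycle (0.06 and -0.13) and cell cycle inhibitors (0.09 and -0.15).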

How the results depend on the processing

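The counts of 42 higher and 22 lower genes depended most on the pseudocount and the threshold. With a pseudocount of 0.25 there were 44 lower genes (and 59 higher), with a pseudocount of 5 there were 19 higher and 5 lower, with a mean CPM of at least 5 there were 14 lower (and 32 higher), and at 1.5-fold there were 180 higher and 164 lower. A higher pseudocount or filter removes low genes by construction. Higher genes were 65.6% of the 2-fold genes as reported, 79.2% with a pseudocount of 5 and 57.3% with 0.25. Median-of-ratios rescaling gave 38 and 25, with all 38 among the 42 and 22 of the 25 among the 22, and trimmed-mean (TMM) rescaling gave 37 and 25. The mean of both controls as the reference gave 44 and 16, of which 33 and 12 were among the 42 and 22, and the 48 h control, an alternative chosen after seeing the data, gave 54 and 30. With the mean of both controls as the reference, 51 of 277 recomputed gene folds moved by at least the mean reach of their counting interval to either side. A further 2, Egr1 and mt-Co1, had intervals beyond 1 and changed sign. With TMM rescaling 19 moved so far, with a pseudocount of 5 there were 8 and with median-of-ratios rescaling 5. Of the 277 folds 10 changed sign under at least 1 planned setting. With the mean of both controls as the reference 7 did so: Egr1 had a log2 fold of 0.18, mt-Co1 -0.0052, Stat2 0.17, Ankrd1 0.13, Gm15910 0.20, Kifc2 0.06 and Rel -0.06. Lox, Tnfrsf1a and Chuk, reported within 0.03 of 0, fell below 0 with a rescaling. No list median with a size of at least 0.1 changed sign. No paired analysis was possible because each group holds 1 library and the labels carry no replicate number. No library could be left out with 1 a side.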
